A study of Mus musculus with 10 samples.

Results

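The genes described here encode the keratin-associated proteins, the Krtap genes, which are the matrix proteins of the hair shaft. They were taken by name: every gene whose symbol begins with Krtap and whose gene type is protein coding in the GENCODE M21 annotation. The annotation holds 57 such genes, and 56 of them are among the 49671 gene IDs counted in the deposited files. The genes were measured by RNA sequencing of poly(A) RNA from whole skin of mice aged 22 weeks. The 5 NPYtet mice were homozygous for an altered Npy allele (B6;129S4-Npytm2Rpa/J), and 3 were labelled female and 2 male. The 5 WT mice were wildtype siblings from the same strain, and 2 were labelled female and 3 male. The series title links the mutant allele to overexpression of Npy, the gene of neuropeptide Y. The labels name no drug treatment, no Cre driver and no body site of the skin. Each library carries an animal number of its own in the labels.

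A hair is made by the follicle, which cycles between growth, regression and rest. During growth, cells of the matrix move up and become the cortex and cuticle of the shaft, where hair keratins form filaments. Keratin-associated proteins surround these filaments and tie them together through disulfide bonds, and their genes are switched on late in shaft formation. They are sorted into numbered subfamilies and, by composition, into high sulfur, ultra-high sulfur and high glycine-tyrosine classes. Whole skin is a mixture, so fewer shaft-forming cells in a sample and less Krtap RNA per cell cannot be told apart.

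The 57 genes fall into 27 subfamilies and lie in 5 places of the mouse genome (GRCm38). There are 24 on chromosome 16, 23 on chromosome 11, 5 on chromosome 7, 3 on chromosome 10 and 2 on chromosome 1. The chromosome 16 members span 88610705 to 89571183, and the chromosome 11 members span 99550130 to 99993994. In proteins translated from the annotated transcripts the classes differed in median composition, with overlapping ranges. The 20 ultra-high sulfur members had a median of 37.3% cysteine, the 17 high sulfur members 12.7% and the 15 high glycine-tyrosine members 8.05%. Glycine and tyrosine together made up a median of 4.45%, 11.5% and 63.3% of residues in the same order of classes. Cysteine ran from 25.4 to 41.5% in ultra-high sulfur and from 4 to 30.6% in high sulfur members, so that Krtap1-3 and Krtap2-4 of the high sulfur class held more than Krtap12-1 and Krtap9-3 of the ultra-high sulfur class. The 5 members of subfamilies 28, 29 and 31 were left without a class. Krtap16-3 counts as high sulfur by its number, but 59.3% of its residues are glycine or tyrosine. A partner of at least 95% identity exists for 8 members, among them Krtap31-1 and Krtap31-2 (97.2%) and Krtap4-1 and Krtap4-2 (96.4%), whose reads may be split uncertainly.

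Start regions are shown for 4 members on which results described further on turn. Krtap3-2 and Krtap3-3 encode the same protein, and Krtap19-4 and Krtap20-2 lie in the same chromosome 16 cluster. Each sequence is the 150 bases before the RefSeq start (GRCm38.p6), written 5′ to 3′ on the strand of the gene. Capitals mark a forward match to TATANA, the core of a TATA box. The regions are chr11:99556854-99557003 (minus strand) for Krtap3-2, chr11:99550864-99551013 (minus) for Krtap3-3, chr16:88885090-88885239 (minus) for Krtap19-4 and chr16:89205711-89205860 (plus) for Krtap20-2.
Krtap3-2: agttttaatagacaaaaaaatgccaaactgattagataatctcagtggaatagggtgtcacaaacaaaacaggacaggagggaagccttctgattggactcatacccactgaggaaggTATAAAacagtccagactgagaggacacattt
Krtap3-3: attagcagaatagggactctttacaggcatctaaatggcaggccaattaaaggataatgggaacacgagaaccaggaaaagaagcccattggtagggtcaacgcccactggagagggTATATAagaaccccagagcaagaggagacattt
Krtap19-4: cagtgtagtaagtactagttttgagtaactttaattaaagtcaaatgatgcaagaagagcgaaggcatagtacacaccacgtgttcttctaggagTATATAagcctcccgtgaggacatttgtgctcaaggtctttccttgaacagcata
Krtap20-2: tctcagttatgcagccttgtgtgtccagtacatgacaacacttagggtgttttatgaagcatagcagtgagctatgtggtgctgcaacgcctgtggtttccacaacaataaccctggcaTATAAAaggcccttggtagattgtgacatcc
The TATA match starts 32 bases before the start in Krtap3-2, 33 in Krtap3-3, 55 in Krtap19-4 and 31 in Krtap20-2. The Krtap3-2 and Krtap3-3 stretches were 54.4% identical when aligned end to end. In the same way, Krtap19-4 and Krtap20-2 were 47.6% identical, and Krtap19-4 and Krtap3-2, on different chromosomes, 46.6%. RefSeq start regions of 300 bases (250 before the start and 50 after it) were found for 51 of the 57 members. TATAAA occurred on either strand in 42 of them (82.4%), against 13.6% of all 32851 mouse start regions. In the last 50 bases before the start, a forward TATAAA stood in 34 of 51 (66.7%), against 2.63% of all start regions. The wider form TATANA, which includes TATAAA, stood there in 40 of 51 (78.4%), against 4.40%. CTTTGA, the core recognised by LEF1 and its relatives, occurred on either strand in 15 of 51 member regions and in 5257 of the 32851 regions. These matches describe letters in a window and not binding.

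Total counts ran from 23209405 to 53357695 per library. Npy was higher in NPYtet skin, with 96.2 to 485 CPM (counts relative to the scaled library size) in NPYtet libraries and 0.0940 to 2.86 in WT libraries. The log2 fold change of Npy, NPYtet minus WT, was 7.45 (SE 0.62, edgeR adjusted p = 0.000109), with no overlap between groups. 3 libraries stood apart. The label of NPYtet 1 is female, yet Xist had 2 reads there and the Y-linked Ddx3y 1513. NPYtet 5 had 9.26% mitochondrial counts, against 1.86 to 3.03% in the other 9, and the lowest scaling factor (0.652). WT 2 had the next lowest factor (0.696). The sex term of the fit takes the labels as given, with NPYtet 1 as female, and every fitted fold change printed here rests on it. The median log2 fold change of the tested members was -2.32 without NPYtet 1 and -1.36 with no sex term. Without these 3 libraries the median log2 fold change of the tested members was -4.59, against -3.44 with all 10.

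Krtap RNA varied widely between mice of the same genotype. Krtap reads made up 0.00221%, 0.0828%, 0.00852%, 0.00254% and 0.759% of counts in NPYtet 1 to 5. They made up 1.09%, 0.487%, 0.00197%, 0.645% and 0.179% in WT 1 to 5. NPYtet 1, 3 and 4 and WT 3 were low, NPYtet 5 and WT 1, 2 and 4 were high, NPYtet 2 and WT 5 lay between, and the groups overlapped. The share averaged 0.171 ± 0.330% in NPYtet skin and 0.481 ± 0.425% in WT skin (SD, n = 5 each), with medians of 0.00852% and 0.487%. The log2 ratio of the 2 means was -1.49. Without NPYtet 5 it was -4.32, without WT 1 it was -0.942, and without the 3 libraries named above it was -3.94. Counting error was small beside this spread: 95% Wilson intervals were 0.00206 to 0.00236% in NPYtet 1 and 1.089 to 1.096% in WT 1, and they cover counting error only. The lowest libraries still held 837, 3071 and 932 Krtap reads (NPYtet 1, 3 and 4) and 719 (WT 3), against 361524 in WT 1. Of the 56 members, 16, 1, 2, 13 and 1 had no read in NPYtet 1 to 5, and 1, 2, 9, 0 and 2 had none in WT 1 to 5. A count of 0 is compatible with up to 3 reads.

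**Figure D1:**
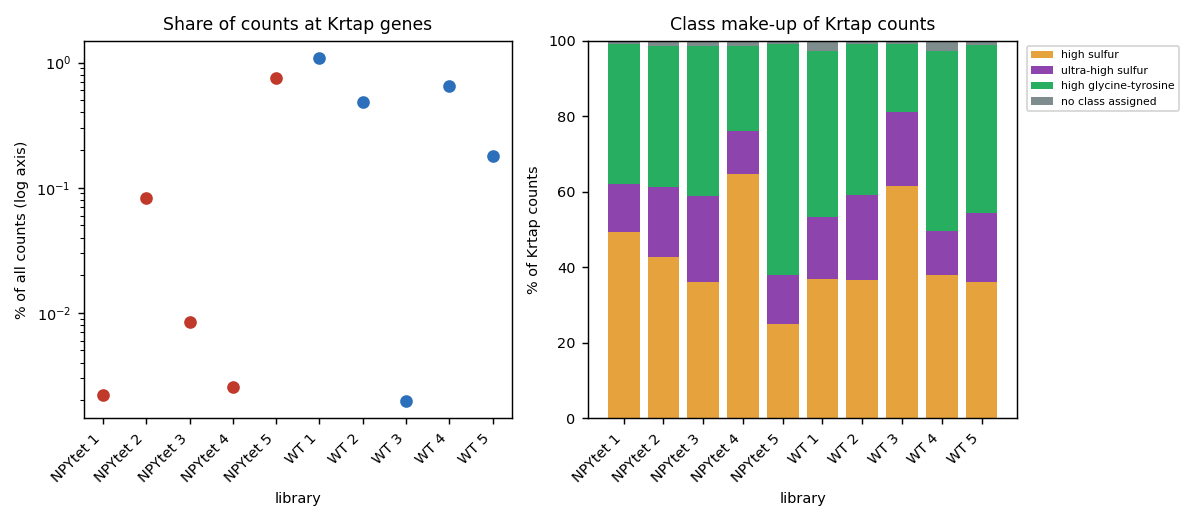
Left, share of all counts at Krtap genes in each library (log axis; red NPYtet, blue WT; 1 point per library). Right, how those counts divide among the classes. The share on the left runs from 0.00197% in WT 3 to 1.09% in WT 1. The high sulfur part is largest in NPYtet 4 (64.8%) and WT 3 (61.5%), where Krtap3-2 alone holds 50.6% and 38.9% of Krtap counts.

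Summed shaft keratins and inner root sheath genes were low in the same 4 libraries. The 10 regulators had their lowest sum in NPYtet 2 (293 CPM), but they did not move as one. Gata3 had 104 CPM there and 190, 256, 274 and 237 CPM in NPYtet 1, 3 and 4 and WT 3. Hoxc13, Foxn1, Lef1, Msx2 and Dlx3 were higher in NPYtet 2 than in each of those 4 libraries. Gata3, Foxq1 and Bmp4 were lower there than in each of them, and Msx1 and Notch1 lay between. The 15 detected hair shaft keratins summed to 8.63, 476, 31.9, 14.3 and 7568 CPM in NPYtet 1 to 5 and to 5432, 9685, 31.6, 4509 and 1784 CPM in WT 1 to 5. The 9 inner root sheath genes, which mark the sleeve around the growing shaft, summed to 8.83, 1254, 110.2, 36.9 and 9933 CPM in NPYtet libraries and 23714, 21719, 281, 16749 and 8186 CPM in WT libraries. The sheath keratins Krt72 and Krt73 had no read in NPYtet 1. The ratio of Krtap to shaft keratin CPM was not constant. It was 2.38, 1.69, 2.22, 1.49 and 1.54 in NPYtet 1 to 5 and 1.72, 0.724, 0.536, 1.26 and 1.12 in WT 1 to 5. The 7 genes of the resting follicle and bulge, among them Krt15 and Cd34, ran from 1541 to 4508 CPM in NPYtet and from 1498 to 3828 CPM in WT libraries. The 4 keratinocyte markers ran from 11995 to 30555 CPM in NPYtet and from 8113 to 56501 CPM in WT libraries. The 4 fibroblast markers ran from 10108 to 72523 CPM and from 10934 to 59899 CPM, and none of these 15 markers was at 0 anywhere. The summed markers of white adipocytes were 1208 to 4828 CPM in NPYtet and 697 to 2559 CPM in WT libraries, those of skeletal muscle 3463 to 7147 and 2813 to 7791 CPM, of sebocytes 2208 to 3943 and 979 to 2557 CPM, and of leukocytes 857 to 2233 and 483 to 2233 CPM. Leukocyte sums were 2151, 2233, 1772 and 2233 CPM in NPYtet 1, 3 and 4 and WT 3, and 483 to 1248 CPM in the other libraries. Resting follicle and bulge sums were 4508, 4352, 3536 and 3828 CPM in those 4 libraries, and 1498 to 4224 CPM in the others. The remaining marker sums overlapped between these low libraries and the others. The part of the tissue mixture in the Krtap values was not tested.

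Per kilobase of exon, the highest members over the 10 libraries were Krtap7-1 and Krtap8-1, small glycine- and tyrosine-rich proteins of 87 and 61 residues, at means of 815 and 707 CPM per kb. Krtap22-2 followed at 506, Krtap6-1 at 219 and the high sulfur Krtap3-1 at 198 CPM per kb. Of the 55 members with more than 2 reads in all, 21 had their highest CPM in WT 1, 21 in NPYtet 5, 12 in WT 2 and 1 in WT 4. This ranking depends on the scaling. The factors were 0.652 in NPYtet 5 and 0.696 in WT 2, against 1.17 in WT 1, and a low factor raises CPM. As a share of all counts the family was highest in WT 1 (1.09%), ahead of NPYtet 5 (0.759%), WT 4 (0.645%) and WT 2 (0.487%). Krtap4-1, highest in WT 2 by CPM, had 5451 of 27207273 counts there and 10202 of 33101744 in WT 1. In CPM, 10 of 15 high glycine-tyrosine members peaked in NPYtet 5, and the other 5, Krtap19-1 to Krtap19-5, peaked in WT 1. Of the ultra-high sulfur members, 9 of 19 peaked in WT 2, namely the 8 members of subfamily 4 and Krtap10-4.

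**Figure D2:**
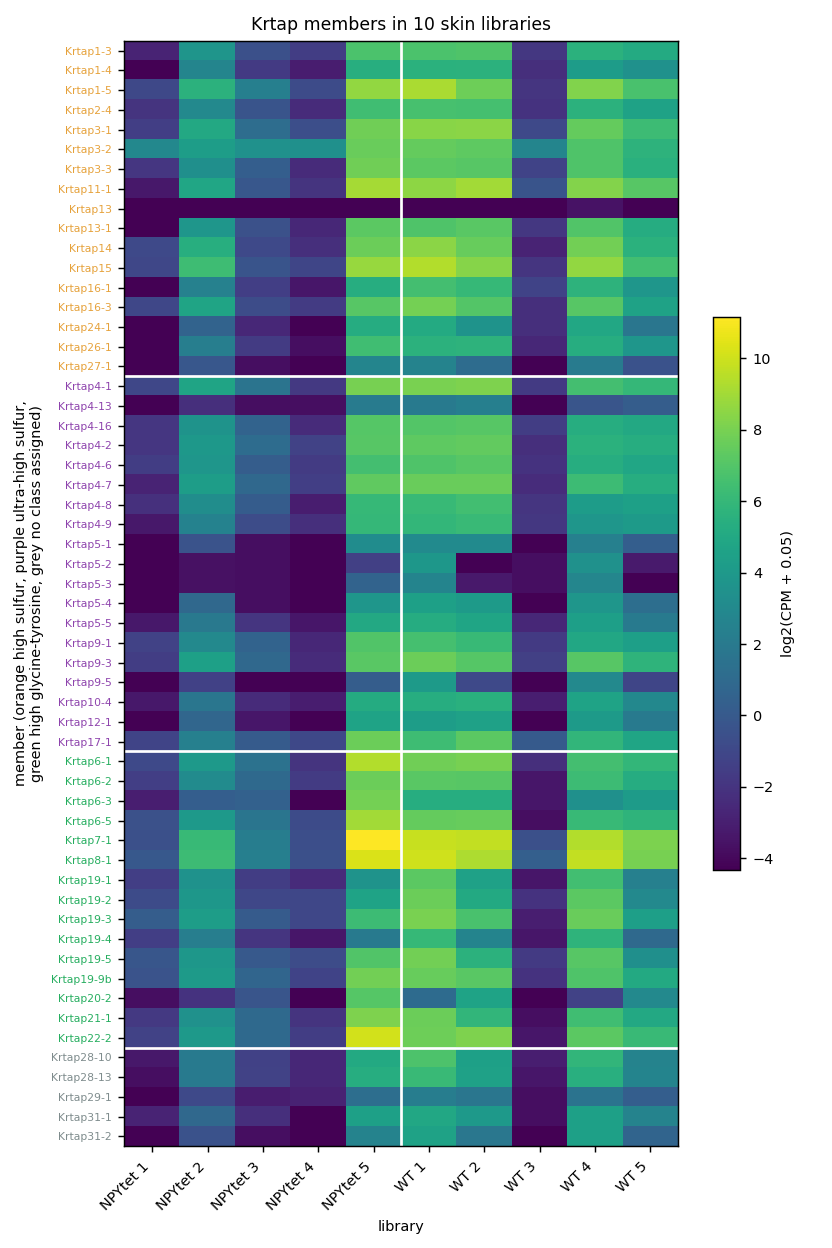
Level of the 56 members (rows, by class and subfamily) in the 10 libraries (columns, NPYtet left of WT), as log2(CPM + 0.05). NPYtet 1, 3 and 4 and WT 3 are dark in nearly every row, and Krtap3-2 is the row that stays lightest in them, at 6.58 to 11.3 CPM.

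High glycine-tyrosine members are small proteins, and in sheep wool their genes are expressed early in the cortex. Krtap7-1 had 0.639, 70.1, 4.68, 0.618 and 2269 CPM in NPYtet 1 to 5 and 941, 851, 0.635, 646 and 276 CPM in WT 1 to 5. Krtap8-1 had 0.910, 78.4, 5.14, 0.641 and 1224 CPM in NPYtet libraries and 1055, 603, 1.22, 840 and 251 CPM in WT libraries. For both genes NPYtet 5 was the highest library by CPM and WT 3 lay among the low NPYtet libraries, so the groups overlapped. For Krtap8-1 that rank depends on the scaling. Its reads were 18503 of 23209405 counts in NPYtet 5, a smaller share than the 40854 of 33101744 in WT 1. On the log2 scale Krtap7-1 differed by -3.42 (SE 3.75) and Krtap8-1 by -3.81 (SE 3.14). Krtap22-2 had 0.369, 16.1, 1.94, 0.298 and 1104 CPM in NPYtet libraries and 216, 281, 0.0470, 155 and 72.2 CPM in WT libraries. Krtap6-1 had 0.492, 16.4, 2.77, 0.206 and 658 CPM in NPYtet libraries and 218, 251, 0.165, 91.7 and 60.6 CPM in WT libraries. In both, NPYtet 5 exceeded every WT library, and the group means were 224 and 145 CPM for Krtap22-2 and 136 and 124 CPM for Krtap6-1 in NPYtet and WT skin. The NPYtet means rest almost wholly on NPYtet 5, whose scaling factor of 0.652 raises its CPM. The order of the Krtap6-1 means depends on that scaling. The fitted log2 fold changes of Krtap22-2 and Krtap6-1 had the other sign, -2.53 (SE 3.80) and -2.55 (SE 3.27), and with no sex term they were 0.63 and 0.13. Krtap21-1, of the same class, had a log2 fold change of -2.74 (SE 3.46). Krtap6-1 and Krtap6-5 proteins are 98.7% identical, so the split of reads between them is uncertain. Krtap20-2 was the only tested member with a positive log2 fold change (0.59, SE 2.21). It had 0.0246, 0.191, 0.807, 0 and 135 CPM in NPYtet libraries and 2.09, 24.8, 0, 0.364 and 7.89 CPM in WT libraries, and without NPYtet 5 its log2 fold change was -3.02. The 6 members of subfamily 19 are described below with the make-up of the libraries. Over the 15 members of the class the median log2 fold change was -3.12.

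High sulfur members are the cysteine-containing proteins of the cortex and, for some, of the cuticle. Krtap11-1 had 0.0492, 28.9, 0.876, 0.206 and 545 CPM in NPYtet 1 to 5 and 362, 523, 0.776, 315 and 138 CPM in WT 1 to 5. Krtap15 had 0.443, 82.2, 0.761, 0.412 and 441 CPM in NPYtet libraries and 668, 324, 0.212, 391.8 and 90.1 CPM in WT libraries. The low libraries were the same as for Krtap7-1, and the log2 fold changes were -4.37 (SE 3.24) and -4.53 (SE 3.51). An exon of Krtap15 overlaps one of 4930553J12Rik on the same strand, so reads there cannot be assigned. Krtap1-5 had -3.50 (SE 2.85), Krtap13-1 -3.79 (SE 2.67), Krtap14 -4.43 (SE 3.12) and Krtap16-3 -4.04 (SE 2.82). Krtap2-4, with -3.52 (SE 2.37), shares 41.9% of its 75-base stretches with genes that carry Gm names. Krtap24-1, Krtap26-1 and Krtap27-1 were low, at means of 7.72, 25.1 and 3.17 CPM per kb, with log2 fold changes of -3.38 (SE 2.90), -3.29 (SE 2.79) and -2.46 (SE 2.22). Krtap13 had 2 reads, both in WT 4, and was not tested. The 16 tested members of the class were all negative, with a median log2 fold change of -3.51.

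Ultra-high sulfur members had the highest median cysteine of the 3 named classes, although Krtap28-10 and Krtap28-13, left without a class, exceeded each of them (42.9% and 42.8%). In human hair the KRTAP5 and KRTAP10 genes are expressed in the cuticle. The 8 members of subfamily 4 had log2 fold changes between -3.50 and -2.57. Krtap4-1, the highest of them per kilobase, had 0.443, 26.6, 3.07, 0.252 and 254 CPM in NPYtet 1 to 5 and 263, 288, 0.259, 90.4 and 62.5 CPM in WT 1 to 5, with a log2 fold change of -3.34 (SE 2.54). NPYtet 5 lay just below WT 1 and 2 here. Krtap9-3 was at -3.66 (SE 2.42), Krtap10-4 at -3.58 (SE 2.37), Krtap12-1 at -3.42 (SE 2.56) and Krtap17-1 at -2.70 (SE 2.25). Krtap5-5, the highest tested member of subfamily 5, had -3.30 (SE 2.44). Krtap9-5 had the lowest value of all members, -4.86 (SE 2.31). It had 0, 11, 0, 0 and 17 reads in NPYtet 1 to 5 and 662, 9, 0, 464 and 14 reads in WT 1 to 5. Krtap5-2 and Krtap5-3, which did not pass the filter on low counts, were also nearly confined to WT 1 and WT 4. Krtap5-2 had 0, 1, 1, 0 and 5 reads in NPYtet libraries and 553, 0, 1, 684 and 2 in WT libraries. Krtap5-3 had 0, 1, 1, 0 and 22 reads in NPYtet libraries and 243, 1, 1, 408 and 0 in WT libraries. WT 2, with 132536 Krtap reads, held 0 and 1 of them. Subfamilies 4, 5, 9 and 10 share sequence with other genes: Krtap4-13 shares 70.9% of its 75-base stretches with Gm genes and Krtap5-1 shares 41.6%. Members without a class had log2 fold changes from -4.43 to -2.81, among them Krtap28-10 (-4.16, SE 2.71) and Krtap31-1 (-3.45, SE 2.33).

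No member was called different between NPYtet and WT skin. Of the 56 members, 53 passed the filter on low counts and were tested among 18060 genes with edgeR. The number called at an adjusted p under 0.05 was 0 of 53, and over all genes 1 was called, Npy (0.00554%). Every member's edgeR adjusted p was 0.999. Before adjustment 1 member, Krtap29-1, fell below 0.05 in the lower direction (log2 fold change -2.81, SE 1.26, unadjusted edgeR p = 0.0490, exact permutation p = 0.135), against 2.14% of all genes. Krtap29-1 had 0, 15, 3, 4 and 35 reads in NPYtet 1 to 5 and 179, 63, 1, 180 and 39 in WT 1 to 5. The next smallest edgeR p values were those of Krtap19-4 (0.0562) and Krtap9-5 (0.0700). Exact permutation of the genotypes over libraries, two-sided, gave no member a p under 0.05. The smallest was 0.0714, for Krtap16-1, where the design allows 0.00794. The direction was shared: 52 of 53 members had a negative log2 fold change, against 51.2% of all genes, and 50 had -2 or lower, against 1.25%. The median was -3.44, against -0.0099 over all genes. SEs ran from 1.09 to 3.80, and members rose and fell together across libraries, so the shared sign is not a count of separate observations. No member's groups were free of overlap, against 0.305% of all genes.

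DESeq2 also called 0 of 53 members (0.194% of all genes were called), and limma voom called 0 (0.0111% of all genes). In DESeq2, 40 members had an unadjusted p under 0.05, and the share of all genes at that threshold is not given. With no filter on low counts, edgeR called 53 of 56 members, all lower in NPYtet skin, and 1.24% of all genes. That fit set the members' own spread aside: its prior degrees of freedom were infinite for the members and their median quasi-dispersion was 0.791, against 0.501 degrees of freedom and 20.3 in the filtered fit. The direction of the fitted fold changes, with labelled sex in the model, rested on WT 1. WT 1 is labelled female, and the other female-labelled libraries, NPYtet 1, 3 and 4 and WT 3, were the low ones. Without WT 1 the median over the 53 members was 0.149, and 19 of 53 were negative, while the log2 ratio of mean Krtap shares kept its sign (-0.942). Without NPYtet 5 the median was -5.03, and 50 of 53 members reached an unadjusted edgeR p under 0.05. None reached an adjusted p under 0.05, against 0.00543% of all genes. The share of all genes at the unadjusted threshold is not given for this fit, and the members rose and fell together. In limma voom with quality weights, with all 10 libraries, the median was -1.38.

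**Figure D3:**
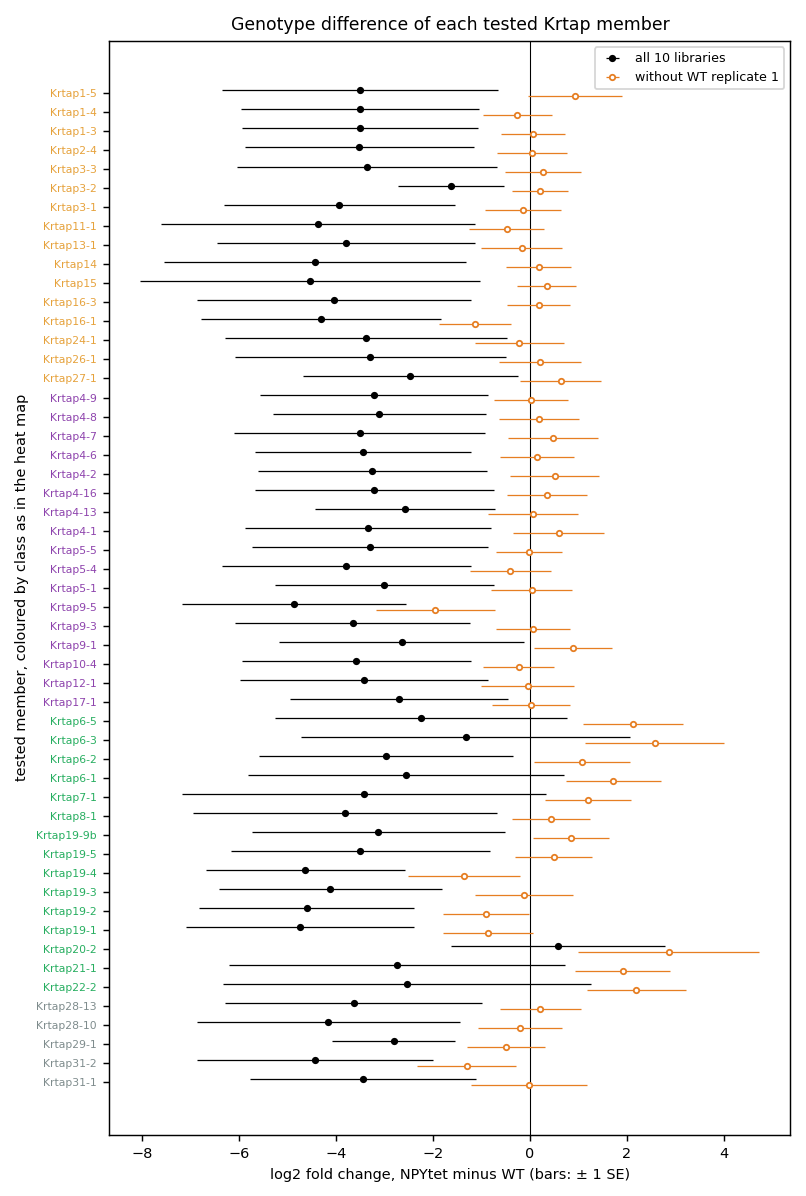
Log2 fold change, NPYtet minus WT, of the 53 tested members with bars of 1 SE, from all 10 libraries (black) and without WT 1 (orange). The black points lie between -4.86 and 0.59. Without WT 1 the points spread on both sides of 0, with a median of 0.149. There 19 of the 53 are negative, while Krtap6-3 lies at 2.57 and Krtap22-2 at 2.20.

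The mixture of Krtap RNAs differed between libraries, apart from its amount. This was examined in the 6 libraries with at least 25000 Krtap reads, for the 53 members with a read in each of them, as each member's share of the Krtap reads of its library. The shares were most alike between WT 2 and WT 5 (Pearson r = 0.975 on the log2 scale, across genes), WT 1 and WT 4 (0.964) and NPYtet 2 and WT 1 (0.964). They were also alike between NPYtet 5 and WT 5 (0.949) and NPYtet 5 and WT 2 (0.931). They were least alike between NPYtet 5 and WT 4 (0.661), and NPYtet 2 and NPYtet 5 had 0.758. Genes are not independent replicates, and these values describe single libraries. By this measure NPYtet 2 was more like each of the 4 WT libraries than like NPYtet 5, and NPYtet 5 was more like WT 2 and WT 5 than like NPYtet 2.

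Among these 53 members, 4 of the 5 whose share varied most between these libraries lie on chromosome 16, and the other is Krtap9-5 on chromosome 11. Chromosome 16 holds 24 of the 57 genes. Krtap5-2 and Krtap5-3 on chromosome 7 lacked a read in at least 1 of these libraries and were not ranked. Krtap5-3 made up 0.118% of Krtap reads in WT 4 and 0.000755% in WT 2. Krtap19-1 made up 1.46% and 0.105% of Krtap reads in NPYtet 2 and 5 and 1.61%, 0.330%, 1.53% and 0.265% in WT 1, 2, 4 and 5. Krtap19-4 made up 0.606% and 0.0335% in NPYtet 2 and 5 and 0.705%, 0.0898%, 0.948% and 0.0951% in WT 1, 2, 4 and 5. Both took larger shares in NPYtet 2, WT 1 and WT 4 than in NPYtet 5, WT 2 and WT 5, and so did Krtap19-2, Krtap19-3 and Krtap19-5. Krtap19-9b, the sixth member of subfamily 19, did not: its shares lay between 1.66% and 2.15%. The split was not particular to subfamily 19. Krtap14, Krtap15, Krtap16-3 and Krtap27-1 on chromosome 16 showed it too. So did Krtap9-5 and Krtap31-2 on chromosome 11, and Krtap28-10 and Krtap28-13 on chromosome 1. Krtap20-2 ran the other way, with 0.0238% and 1.16% in NPYtet 2 and 5 and 0.0224%, 0.354%, 0.00639% and 0.395% in WT 1, 2, 4 and 5. Krtap6-3 made up 0.147% and 2.10% in NPYtet 2 and 5 and 0.424%, 0.567%, 0.194% and 0.901% in the same WT libraries. Larger shares in NPYtet 5, WT 2 and WT 5 were also seen for Krtap6-1, Krtap6-2, Krtap6-5, Krtap7-1, Krtap22-2 and, on chromosome 11, Krtap17-1. The highest share was 182-fold the lowest for Krtap20-2, 28.3-fold for Krtap19-4, 15.4-fold for Krtap19-1 and 14.3-fold for Krtap6-3, but 1.40-fold for Krtap26-1 and 1.71-fold for Krtap8-1 in the same cluster. The ratio of Krtap20-2 to Krtap19-4 reads thus turned over: 2045 and 59 reads in NPYtet 5, against 22 and 3266 reads in WT 4. The libraries with more Krtap20-2 had scaling factors of 0.652 (NPYtet 5), 0.696 (WT 2) and 0.898 (WT 5), and the others 1.03 (NPYtet 2), 1.17 (WT 1) and 1.13 (WT 4). All of them are labelled male but WT 1. The part of either in the mixture was not tested.

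**Figure D4:**
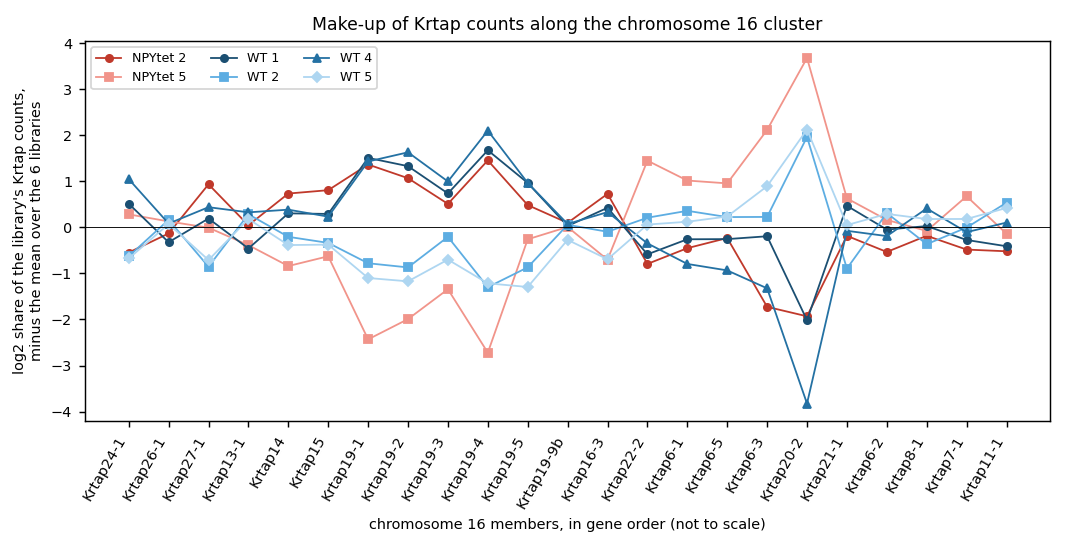
Each member's log2 share of the Krtap reads in a library, minus its mean over the 6 libraries with at least 25000 Krtap reads, along chromosome 16 in gene order (red shades NPYtet, blue shades WT). Krtap19-1 to Krtap19-5 lie above 0 in NPYtet 2, WT 1 and WT 4 and below 0 in the other 3 libraries. Krtap14, Krtap15, Krtap16-3 and Krtap27-1 do the same. Krtap6-1, Krtap6-2, Krtap6-3, Krtap6-5, Krtap20-2 and Krtap22-2 show the opposite order.

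Krtap19-1, Krtap19-2 and Krtap19-4 were also among the 5 tested members with the lowest log2 fold changes and smallest p values. Krtap19-4 had 0.320, 4.87, 0.208, 0.0458 and 3.90 CPM in NPYtet 1 to 5 and 65.8, 6.29, 0.0470, 54.1 and 1.90 CPM in WT 1 to 5. Its log2 fold change was -4.63 (SE 2.05, edgeR adjusted p = 0.999). WT 1 and WT 4 were high and the other WT libraries lay within or near the NPYtet range. Krtap19-1 had -4.74 (SE 2.35) and Krtap19-2 had -4.60 (SE 2.22). In DESeq2 the unadjusted p values were 0.00151 for Krtap19-4, 0.00190 for Krtap19-1 and 0.00200 for Krtap19-2, and none was called.

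Krtap3-2 behaved apart from its relatives in the low libraries. It had 301, 610, 490, 472 and 3003 reads in NPYtet 1 to 5 and 7035, 3028, 280, 7104 and 1744 in WT 1 to 5. Krtap3-3, whose protein of 99 residues is identical, had 9, 330, 51, 6 and 3309 reads in NPYtet libraries and 5788, 2603, 16, 7149 and 1522 in WT libraries. Where Krtap RNA was abundant the genes had similar counts, and in the 4 low libraries, NPYtet 1, 3 and 4 and WT 3, Krtap3-2 was far above Krtap3-3. Per kilobase, Krtap3-2 stood at 7.18, 18.8, 10.96, 10.5 and 193 CPM in NPYtet libraries and 176, 155, 6.39, 114 and 50.2 CPM in WT libraries. Krtap3-2 alone held 36.0% of all Krtap reads in NPYtet 1 (95% Wilson interval 32.8 to 39.3%), 50.6% in NPYtet 4 (47.4 to 53.8%) and 38.9% in WT 3 (35.4 to 42.6%), against 1.95% in WT 1. NPYtet 3 lay between, with an interval of 14.7 to 17.3%. Its highest library was 30.2-fold its lowest. Its log2 fold change was -1.63 (SE 1.09, edgeR adjusted p = 0.999) and that of Krtap3-1 was -3.93 (SE 2.39). Krtap3-2 shares 27.1% of its 75-base stretches with Krtap3-1 and Krtap3-3, so some reads could have been placed in either.

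**Figure D5:**
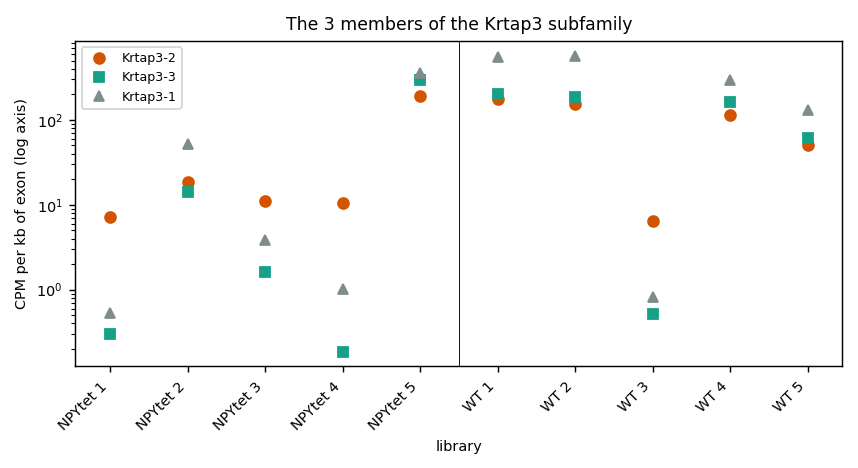
Krtap3-2, Krtap3-3 and Krtap3-1 in each library as CPM per kb of exon (log axis), NPYtet left of WT. In NPYtet 1, 3 and 4 and WT 3, Krtap3-2 lies at 7.18, 10.96, 10.5 and 6.39 CPM per kb, above both other genes, while in WT 1 it lies at 176, below them.

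Regulators of shaft formation had log2 fold changes of the same sign, and edgeR called 0 of 10. All 10 were negative with all libraries and the sex term, Gata3 turning positive with no sex term (0.067), with the replicate block (0.086) and without WT 4 (0.080), and 6 were lower at an unadjusted p under 0.05, against 2.14% of all genes. Lef1, which acts in the hair matrix through Wnt signalling, had 1.35, 4.23, 2.31, 2.24 and 3.44 CPM in NPYtet 1 to 5 and 47.2, 7.98, 3.55, 53.2 and 6.97 CPM in WT 1 to 5. WT 1 and WT 4 were far above the others, and only WT 3 fell within the NPYtet range. Hoxc13, a direct regulator of hair keratin genes, had 9.22, 14.6, 10.4, 6.71 and 40.1 CPM in NPYtet libraries and 127, 59.3, 9.52, 112 and 50.8 CPM in WT libraries, with WT 3 again inside the NPYtet range. Their log2 fold changes were -3.13 (SE 0.73) for Lef1 and -2.20 (SE 0.58) for Hoxc13. The homeobox genes Dlx3, Msx2 and Msx1 had -2.31 (SE 0.51), -2.61 (SE 0.62) and -1.46 (SE 0.41), and Foxn1, the nude gene, had -1.47 (SE 0.44). DESeq2 called Lef1, Msx2, Dlx3 and Hoxc13. Without WT 1, Lef1 was at -1.97, Hoxc13 at -0.97, Dlx3 at -1.30, Msx2 at -1.33, Msx1 at -0.89 and Foxn1 at -0.69. Foxq1, Notch1, Bmp4 and Gata3 had -0.54 (SE 0.31), -0.56 (SE 0.34), -0.42 (SE 0.35) and -0.13 (SE 0.31). NPYtet 5, which had the second highest Krtap share of all libraries, had 3.44 CPM of Lef1, close to the 3.55 CPM of WT 3, which had the lowest share. Of the 15 tested shaft keratins all were negative, with a median of -4.09, and of the 11 genes of shaft crosslinking and other shaft proteins 10 were negative, with a median of -3.47. The most abundant keratins per kilobase were Krt83 (log2 fold change -4.06, SE 3.15), Krt86 (-4.13, SE 3.19), Krt34 (-4.26, SE 2.89) and Krt33b (-3.92, SE 3.15), and none was called. Without WT 1 they were at -0.071, -0.043, -0.13 and 0.22.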

How the data were processed

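The authors deposited a table of raw read counts per gene (Ensembl IDs, whole numbers) for each of 10 skin libraries, made per the labels' protocols from poly(A) RNA with a directional paired-end kit. Per the submitters' processing notes, the tools named are STAR 2.5.2, Trimmomatic 0.36, FastQC 0.11.8, bcl2fastq and DESeq2 1.30.1, with the mm10 build. Neither the annotation release nor the strand setting of the counting is given in the sources used here. IDs were named with GENCODE M21 (49412 of 49671 matched, and the rest held 0.0189% of reads). Krtap10-10 was not analysed here.

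Genes were kept by filterByExpr (minimum count 10, minimum total 15), which removed Krtap5-2, Krtap5-3 and Krtap13, and tested with edgeR 4.0.16 in R 4.3.3: TMM scaling, robust quasi-likelihood test, terms for labelled sex (NPYtet 1 entered as female, as labelled, although its reads differ) and genotype, Benjamini-Hochberg adjustment over 18060 genes, threshold 0.05. Fold changes are log2, NPYtet minus WT. SEs are the fold change divided by the square root of the F statistic. CPM uses TMM-scaled library sizes; SDs are over 5 libraries. Nothing beyond the animal numbers in the labels says that libraries are independent, so p-values measure the spread between these libraries. Total counts of 23209405 to 53357695 set the depth. No pair of libraries agreed within sampling noise (chi-square per degree of freedom at least 25.5).

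The members, the lists of other hair genes and cell markers, the tests and the alternatives were chosen with earlier results of these data known. Named members are the most abundant per kilobase in each subfamily and the 5 with the smallest p, the lowest and the highest fold change; regulators are named in full and keratins by abundance per kilobase. Krtap5-2, Krtap5-3, Krtap13, Krtap3-3, Krtap4-13, Krtap5-1, Krtap16-1, Krtap19-3, Krtap19-5, Krt72 and Krt73 were named after their values were seen. Alternatives were DESeq2 1.42.0, limma 3.58.1 (voom with quality weights), other scaling and filters, no sex term, a replicate block and leaving out libraries. The fit was also run on simulated counts, whose settings and outcome are not reported here, so no statement rests on that run. Of the members, 34 share stretches of 75 bases, the read length, with another gene's transcripts, so the division of their reads is uncertain.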

Additional observations from a re-analysis of the deposited data

Results flagged for a closer look

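WT 3 stood apart as the lowest WT library in 26 measures. The genes named by rule and the Krtap share of counts were screened in each group. For each flagged measure, the gap between WT 3 and the next WT library was divided by the range of the 5 WT libraries. The scale was log2 CPM for genes and log2 percent of counts for the Krtap share. The ratio exceeded Dixon's 95% critical value for 5 samples, which chance passes in about 1 of 20 groups. The measures share the same library and are not separate observations. The ratio was 0.714 for the Krtap share of counts (0.00197% in WT 3). Among high glycine-tyrosine members it was 0.84 for Krtap6-5, 0.83 for Krtap7-1, 0.829 for Krtap22-2, 0.798 for Krtap6-1, 0.786 for Krtap8-1 and Krtap6-3, 0.767 for Krtap21-1 and 0.738 for Krtap19-9b. Among high sulfur members it was 0.793 for Krtap11-1, 0.787 for Krtap13-1, 0.777 for Krtap1-5, 0.771 for Krtap3-1, 0.77 for Krtap26-1, 0.765 for Krtap2-4, 0.744 for Krtap15 and 0.741 for Krtap14. Among ultra-high sulfur members it was 0.785 for Krtap9-3, 0.776 for Krtap4-1 and 0.713 for Krtap12-1, and it was 0.731 for Krtap31-1. The shaft keratins Krt33b, Krt34, Krt83 and Krt86 had 0.751, 0.741, 0.735 and 0.714. Npy had 0.749, with 0.0940 CPM in WT 3. No NPYtet library was flagged for any of these measures.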

How the results depend on the processing

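Over all genes, 1 gene was called by edgeR as described, 35 with DESeq2, 2 with limma voom, 409 with no filter on low counts, 0 without WT 2, NPYtet 1 and NPYtet 5 together (Npy adjusted p = 0.133) and 1 to 8 when each library was left out in turn (8 without WT 3). The number of members called was 0 in each setting but 1: with no filter it was 53. The median log2 fold change of the tested members was -3.44, and -5.03 to 0.149 when each library was left out, turning positive only without WT 1. It was -1.38 in limma voom with quality weights and -1.36 with no sex term. The log2 ratio of mean shares was -1.49, and -4.32 to -0.942 with each library left out. Replicate numbers do not pair the samples: deviations of same-numbered libraries correlated at -0.256, 0.304, 0.644, 0.093 and 0.076. With a replicate block 0 members were called, the median was -3.24, and 1 gene was called over all genes. Among named genes, the replicate block turned Krtap20-2 to -1.99 and Gata3 to 0.0861. With no sex term, Krtap6-3, Krtap22-2, Krtap6-5, Krtap6-1 and Gata3 were at 1.19, 0.631, 0.136, 0.126 and 0.067. In limma voom, Krtap20-2 was at -1.29 and Krtap6-5 at 0.016. Without WT 2, NPYtet 1 and NPYtet 5 together, Krtap20-2 was at -2.33. The cause was not tested.

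Leaving out each library in turn gave these lowest and highest log2 fold changes for the named genes that changed sign: Krtap1-5 -4.87 to 0.93, Krtap2-4 -5.10 to 0.048, Krtap4-1 -4.79 to 0.59, Krtap6-1 -4.98 to 1.72, Krtap7-1 -5.71 to 1.20, Krtap8-1 -5.60 to 0.44, Krtap9-3 -4.88 to 0.074, Krtap14 -6.19 to 0.18, Krtap15 -6.61 to 0.35, Krtap16-3 -5.56 to 0.18, Krtap17-1 -5.09 to 0.024, Krtap19-9b -4.82 to 0.85, Krtap20-2 -3.02 to 2.87, Krtap21-1 -4.89 to 1.91, Krtap22-2 -5.35 to 2.20, Krtap26-1 -5.27 to 0.21, Krtap27-1 -3.98 to 0.64, Krtap6-3 -4.91 to 2.57, Krtap3-2 -2.94 to 0.21, Krtap6-5 -4.52 to 2.13, Gata3 -0.24 to 0.0803 and Krt33b -5.97 to 0.22. Depth limits members near 0 reads: 3 reads correspond to 0.0497 to 0.199 CPM.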
